A study of Bos taurus with 12 samples.

Results

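The HOX genes and the miRNAs encoded inside the Hox clusters were followed through 9 d of adipogenic differentiation in bovine intramuscular preadipocytes. The members were all mRNA entries whose gene name is HOXA, HOXB, HOXC or HOXD with a number, and all miRNA entries named miR-10a, miR-10b, miR-196a, miR-196b or miR-615, from either arm of the hairpin. They numbered 36 of 33714 mRNA entries and 9 of 1458 miRNA entries, 45 of 35172 in all. The 36 mRNA entries cover 39 HOX genes, because HOXA5, HOXA6 and HOXA3 share 1 entry, HOXB4 and HOXB3 share 1, and HOXD4 shares 1 with the gene of miR-10b. Within a shared entry the genes cannot be told apart.

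The cells were isolated from longissimus dorsi of newborn Qinchuan cattle and grown in DMEM-F12 with FBS and penicillin/streptomycin. RNA was taken before induction (0 d) and at 3, 6 and 9 d, with 3 libraries a day and 12 libraries in all. At near confluence all cultures were switched to dexamethasone (DEX), IBMX and insulin, and before 3 d to insulin alone, so the 0 d cells had received none of these agents and all later cells were harvested in insulin alone. No uninduced culture was sequenced after 0 d, and induction and time in culture cannot be told apart.

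HOX genes encode homeodomain transcription factors that give cells their position along the body axis. They lie in clusters A to D, in which paralog groups with low numbers act toward the head and groups with high numbers toward the tail and the ends of the limbs, and mesenchymal cells, fat cell precursors among them, keep such a positional HOX pattern in culture. The clusters also hold miRNA genes, of which miR-10 and miR-196 are known to repress HOX mRNAs.

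The miRNA sequences are shown because the seed, bases 2 to 8 from the 5′ end, largely sets which mRNAs a miRNA pairs with, and because closely related members can be hard to separate by their reads. Capitals mark the seed, the sequences run 5′ to 3′ as in the miRNA table, and a suffix R-1 means that the detected form is 1 base shorter at its 3′ end than the reference. The miR-10 pair, which had the edgeR calls described below, has 1 seed in common:
bta-miR-10a_R-1: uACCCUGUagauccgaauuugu
bta-miR-10b_R-1: uACCCUGUagaaccgaauuugu
The miR-196 sequences, which were almost absent, share another seed:
bta-miR-196a: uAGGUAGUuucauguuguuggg
bta-miR-196b_R-1: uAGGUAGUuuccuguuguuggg
The arms of miR-615 have unrelated seeds, and the 3′ arm was the abundant one:
hsa-miR-615-3p_R-1: uCCGAGCCugggucucccucu
bta-miR-615: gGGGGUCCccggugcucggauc

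From 1 at the 5′ end, miR-10a and miR-10b differ by U12A, and miR-196b and miR-196a by C12A. The matching step allowed a mismatch, so reads of miR-10a and miR-10b could in part have been exchanged, which was not tested. Of the 1458 miRNA entries, 0 outside the members had any of these seeds. In ARS-UCD1.2 the hairpin of miR-10a lies at chr19:37912298-37912418 (+ strand), that of miR-10b at chr2:20762738-20762841 (- strand), and that of miR-615 at chr5:25998806-25998947 (- strand). The hairpin of miR-196b lies at chr4:68873154-68873238 (+ strand), and miR-196a has a copy at chr19:37860865-37860966 (+ strand) and another at chr5:26040777-26040886 (- strand). The RefSeq gene table, which is for ARS-UCD2.0 and was used for names and order only, lists all 39 HOX genes, with cluster A on chromosome 4, B on 19, C on 5 and D on 2. In it, the miR-10a gene lies between HOXB5 and HOXB4 and inside the span of HOXB3, the miR-10b gene inside HOXD4 and the miR-615 gene inside HOXC5. The miR-196a genes lie inside HOXB9 and between HOXC9 and HOXC10, and the miR-196b gene between HOXA10 and HOXA9.

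The cells carried a HOX pattern centred on the middle of the clusters. mRNA levels are given as FPKM, which are scaled by transcript length, so that genes can be compared within a library. Of the 16 entries of paralog groups 4 to 9, 11 had a mean of at least 1 FPKM over the 12 libraries, with a median of 2.86 and a highest mean of 27 FPKM. Of the 12 entries of groups 10 to 13, 0 reached 1 FPKM, with a median of 0.0179 and a highest mean of 0.818 FPKM. In groups 1 to 3, 2 of 6 entries reached 1 FPKM, with a median of 0.285 and a highest mean of 2.21 FPKM, and the remaining 2 entries join group 3 with higher groups. HOXB6 (27 FPKM) and HOXC6 (23.2 FPKM) had the highest means, followed by HOXD9 (16.8 FPKM), HOXB8 (14.7 FPKM), HOXA4 (7.14 FPKM) and HOXD4 with MIR10B (7.07 FPKM). HOXB6 ranked 3716 by mean among the 15402 mRNAs tested.

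**Figure D1:**
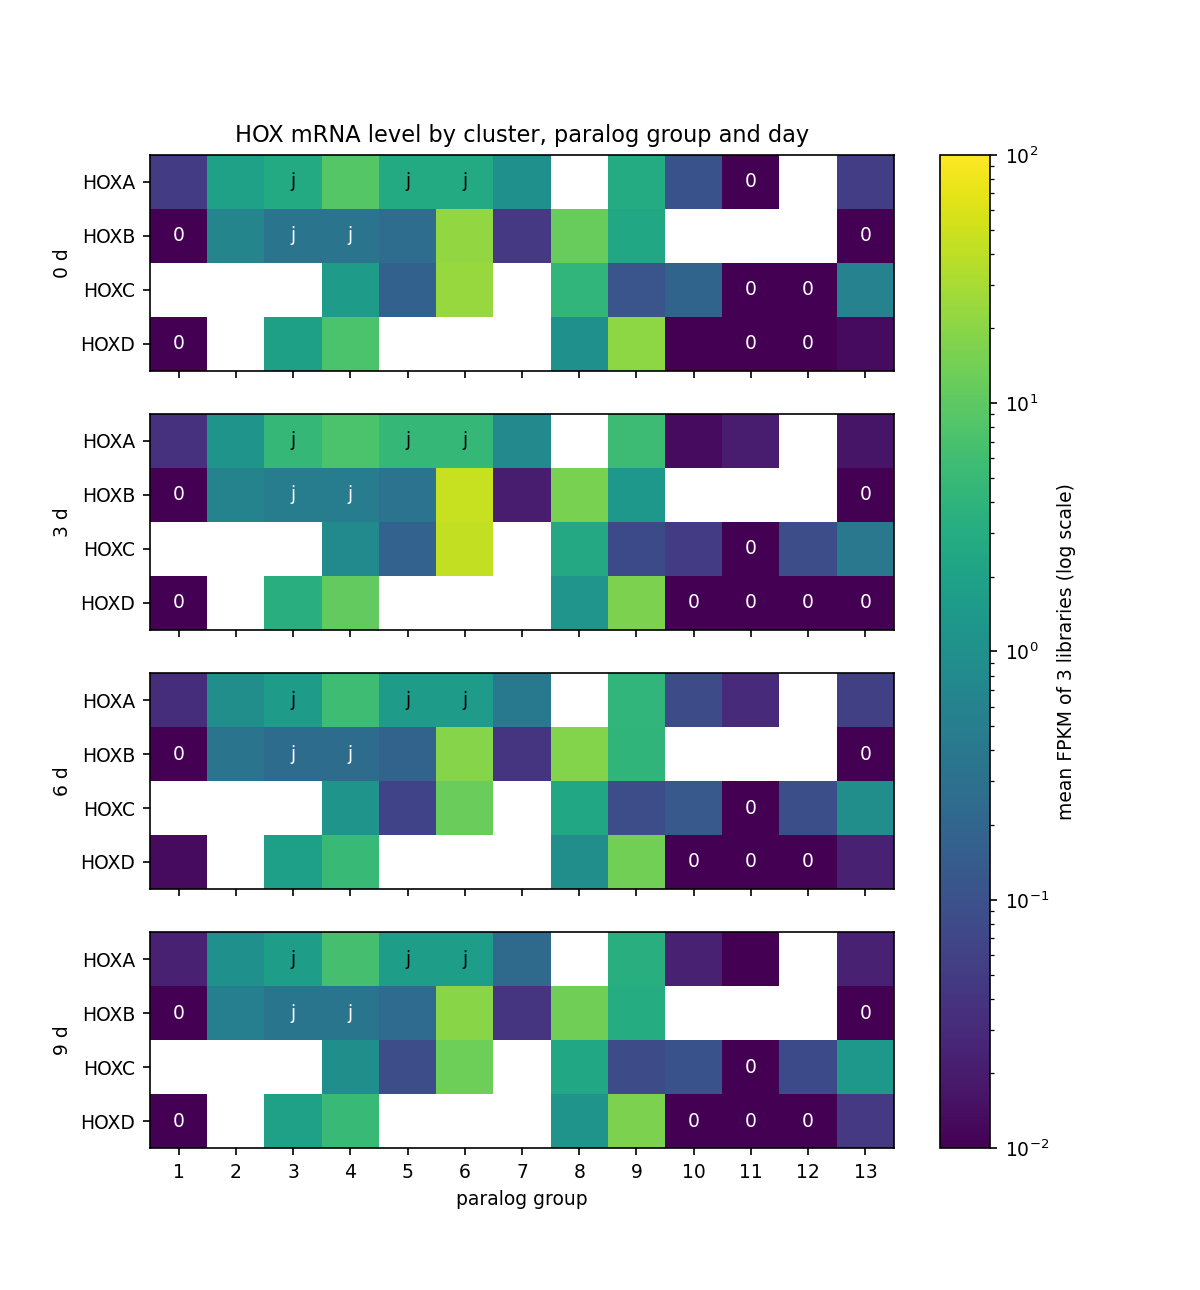
Mean FPKM of 3 libraries for each HOX gene (colour, log scale), by cluster and paralog group, with 1 panel for each day; 0 marks a mean of 0, means under 0.01 have the colour of 0.01, j marks genes that share 1 entry, and white cells have no gene. The bright cells lie between groups 4 and 9 on all 4 days, and HOXB6 and HOXC6 are brightest at 3 d.

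Of the 36 HOX entries, 21 had a mean of at least 0.1 FPKM and were tested. HOXC10 (0.119 FPKM) and HOXC5 (0.126 FPKM) were just inside this limit and HOXC9 (0.0908 FPKM) just outside. HOXB1, HOXB13, HOXC11, HOXD11 and HOXD12, named after their values were seen, were listed at 0 in all 12 libraries. The other 10 untested entries lay between 0 and 0.16 FPKM. HOXB7, also singled out after its values were seen, was at 0.01 to 0.08 FPKM between its abundant neighbours HOXB6 and HOXB8. Transcripts of neighbouring HOX genes overlap, and how the reads were divided among them was not tested. A value of 0 does not show that a gene is silent, since 2 of 71 ribosomal protein entries were listed at 0 in at least 1 library and 1 in all 12. Read counts for single mRNAs were not used here.

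The sum of all 36 HOX entries was 118 ± 10.2 FPKM at 0 d, 164 ± 11.8 on day 3, 94 ± 7.08 on day 6 and 92.8 ± 5.9 on day 9 (mean ± SD, n = 3). It was thus highest at 3 d, where the libraries (150 to 172 FPKM) lay above those of the other days (86 to 127 FPKM). The clusters did not share this course to the same extent. Cluster B held 38.2 ± 3.46 FPKM at 0 d, 65.4 ± 3.11 on day 3, 41.6 ± 5.37 on day 6 and 37.2 ± 1.49 on day 9. Cluster C held 31.2 ± 4.3, 47.3 ± 7.02, 17.3 ± 3.13 and 18.5 ± 0.0503 FPKM on the same days. At 3 d, HOXB6 (46.8 ± 2.24 FPKM) and HOXC6 (43.1 ± 7.29 FPKM) made up most of the level of their clusters. Cluster D held 31.2 ± 5.69, 31.3 ± 2.27, 21.9 ± 1.78 and 24.2 ± 3.1 FPKM, and cluster A 17.6 ± 0.645, 19.6 ± 1.68, 13.2 ± 0.368 and 12.9 ± 2.37 FPKM. In cluster D the 0 d and 3 d means were nearly equal, and in both A and D the means of 6 d and 9 d were lower than those of the earlier days.

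The label of the cells was checked against marker lists. Of all 15402 mRNAs tested, 8.06% were higher and 15.2% lower at 3 d vs. 0 d. At 9 d vs. 0 d these shares were 3.41% and 7.47%. Of 12 adipocyte markers, all measured, 7 were higher and 1 lower at 3 d vs. 0 d, and 7 were higher and 0 lower at 9 d vs. 0 d. Their summed level was 213 to 221 FPKM at 0 d, 1106 to 1162 on day 3, 527 to 587 on day 6 and 410 to 448 on day 9, with PLIN2 the most abundant gene. FABP4, a fatty acid carrier, rose from 3.3 ± 0.255 to 91.1 ± 4.42 FPKM at 3 d and was at 9.07 ± 1.61 FPKM at 9 d, and ADIPOQ, which encodes adiponectin, never averaged above 0.723 FPKM. Its call at 9 d (log2 fold change 2.34) was lost without 0 d replicate 1, 9 d replicate 1 or 9 d replicate 2 (2.05 to 2.26), which left 6 of these markers called higher. With a pseudocount of 1, 4 were higher at 9 d, as ADIPOQ (0.62), CIDEC (0.37) and PLIN4 (0.97) were not called, and with a mean of at least 1 FPKM these 3 were not tested. Of 10 fibroblast and progenitor markers, all measured, 4 were higher and 4 lower at 3 d and 2 were higher and 2 lower at 9 d. The 2 lower, CD34 and LY6E, were not called with a pseudocount of 1 (-0.65 and -0.39) and not tested with a mean of at least 1 FPKM. COL3A1 was the most abundant, and their sum was 116421 to 123759 FPKM at 0 d, 167366 to 175194 on day 3, 130553 to 135009 on day 6 and 212370 to 225542 on day 9. Muscle markers were present too: 9 of 10 were found, 7 were lower at 3 d and 8 at 9 d, and 0 were higher on either day. Their sum was 832 to 947 FPKM at 0 d, 273 to 302 on day 3, 380 to 423 on day 6 and 294 to 329 on day 9, with DES the most abundant and MYOD1, a regulator of myoblasts, at 268 ± 32.5 FPKM at 0 d and 54.5 ± 10.5 at 9 d. The muscle count at 9 d was 7 without 0 d replicate 2 or 9 d replicate 2, and after rescaling, where TNNT3 was no longer called, as with a pseudocount of 1 (-0.72). In bulk RNA, fewer cells of a type and less RNA per cell cannot be told apart, for HOX mRNAs as for these markers. The part of the muscle and fat markers in the HOX results was not tested.

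Markers of other cell types were low, or differed between days. The 8 endothelial markers, of which 3 passed the filter, summed to 2.52 to 3.74 FPKM, with VWF the most abundant, PECAM1 at a mean of 0.00917 FPKM, and 0 called by limma at 3 d or 9 d vs. 0 d (unadjusted p under 0.05 for 2 on each day), or 1 (TEK) at 3 d without 0 d replicate 2. Of 8 blood and immune markers 3 were tested, their sum was 1.12 to 3.74 FPKM, CD14 was the most abundant, PTPRC and TYROBP were listed at 0, and 2 (CD14 and CSF1R) were higher at 3 d and 1 (CD14) at 9 d. The call of CSF1R was lost without 0 d replicate 3 and with a pseudocount of 1 (0.50), CSF1R was not tested with a mean of at least 1 FPKM, and CD14 was not called at 9 d with a pseudocount of 1 (0.94). Of 7 pericyte and smooth muscle markers 6 were tested, with 1 higher and 4 lower at 3 d, or 2 higher (MYH11 added) without 9 d replicate 2 or in the fit of the 6 libraries compared. At 9 d 0 were called higher by limma and 3 lower, or 1 higher (RGS5) with no filter. Their sum was 2288 to 2475 FPKM at 0 d, 238 to 262 on day 3, 1919 to 2046 on day 6 and 874 to 954 on day 9. DES is in this list and in the muscle list, so its level and its lower call at 3 d count in both. ACTA2, the smooth muscle actin of contractile cells, was the most abundant, at 1697 ± 70.1 FPKM at 0 d and 26.8 ± 2.17 at 3 d. Of 7 Schwann and neural markers 2 were tested, with 1 higher and 1 lower at 3 d and 0 higher and 1 lower at 9 d. They summed to 215 to 257 FPKM at 0 d, 69.3 to 122 on day 3, 228 to 315 on day 6 and 98.6 to 121 on day 9, nearly all NCAM1, whose call at 9 d was lost after rescaling (-0.93). Their part in the HOX results was not tested.

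The 3 d vs. 0 d comparison asks what had changed soon after induction. An mRNA was called when its absolute log2 fold change was over 1 and its adjusted p (limma) under 0.05. Of the 21 tested HOX mRNAs, 1 was called higher and 1 lower, beside 8.06% of all 15402 mRNAs higher and 15.2% lower. Without the fold threshold, 10 had an adjusted p under 0.05, 6 of them higher at 3 d and 4 lower, beside 21.7% and 30.5% of all mRNAs. The median log2 fold change was 0.02 for the HOX mRNAs and -0.06 for all mRNAs. The HOX median was -0.09 with no filter and 0.31 with a mean of at least 1 FPKM. It was 0.15 without 0 d replicate 1 and -0.08 without 3 d replicate 2. Fold changes were computed on log2(FPKM + 0.1), which understates the change of genes with low levels.

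HOXB6, a cluster B gene of the middle of the axis, was the 1 HOX mRNA called higher at 3 d. Its level was 21.87, 23.18 and 23.40 FPKM in the 0 d libraries and 48.46, 47.67 and 44.25 FPKM in the 3 d libraries. At 6 d it was 19.07, 18.25 and 19.02 FPKM, and at 9 d 19.55, 18.40 and 20.63 FPKM. All 3 d libraries thus stood well above every other library, and the later days lay just under 0 d. The log2 fold change at 3 d vs. 0 d was 1.03 (SE 0.06, adjusted p = 3.9e-07).

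HOXC6, the group 6 gene of cluster C, showed the same order of days with more spread. It was at 25.82, 27.44 and 19.17 FPKM at 0 d and 51.04, 41.47 and 36.74 FPKM at 3 d. It was then at 12.35, 15.52 and 9.05 FPKM at 6 d and 13.09, 13.70 and 13.22 FPKM at 9 d. Again the 3 d libraries were above all others, and here the 6 d and 9 d libraries were all below the 0 d libraries. At 3 d vs. 0 d its log2 fold change was 0.84 (SE 0.20, adjusted p = 0.00566), under the fold threshold.

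The shared entry of HOXA5, HOXA6 and HOXA3 had 2.94, 2.88 and 2.50 FPKM at 0 d, 4.82, 4.56 and 4.30 on day 3, 1.82, 1.33 and 1.61 on day 6 and 1.83, 1.62 and 1.83 on day 9. HOXD4 with MIR10B had 8.07, 7.50 and 6.52 FPKM at 0 d, 9.30, 12.23 and 10.83 on day 3, 4.85, 4.92 and 5.43 on day 6 and 4.97, 5.28 and 4.92 on day 9. In both entries the 3 d libraries were the highest and the 6 d and 9 d libraries the lowest, with no overlap with 0 d on either side. Their 3 d vs. 0 d log2 fold changes were 0.70 (SE 0.12, adjusted p = 0.000672) and 0.54 (SE 0.11, adjusted p = 0.00237). HOXA9, a more posterior gene of cluster A that is well known from blood progenitors, was at 2.72, 2.85 and 3.03 FPKM at 0 d and 4.94, 5.53 and 6.28 FPKM at 3 d. It was at 3.79, 4.47 and 4.51 FPKM at 6 d and 3.32, 2.73 and 3.54 at 9 d, so its 3 d and 6 d libraries lay above 0 d and its 9 d libraries overlapped 0 d. Its log2 fold change at 3 d vs. 0 d was 0.93 (SE 0.12, adjusted p = 0.000122), and it was called (1.02) when the libraries were rescaled by their median ratio or when 3 d replicate 1 was left out. HOXD3 was at 1.42 to 2.34 FPKM at 0 d and 2.76 to 3.69 at 3 d, with a log2 fold change of 0.75 (SE 0.26, adjusted p = 0.0305).

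Other HOX mRNAs had lower levels at 3 d. HOXC4 was at 1.58, 1.71 and 1.54 FPKM at 0 d, 0.39, 0.89 and 1.12 on day 3, 1.03, 1.39 and 1.13 on day 6 and 1.07, 1.07 and 0.80 on day 9. All later libraries were below 0 d, and 3 d replicate 1 was the lowest of all. It was the HOX mRNA called lower at 3 d (log2 fold change -1.02, SE 0.29, adjusted p = 0.0128), but the call was lost without 3 d replicate 1 (-0.64), without 0 d replicate 2 (-0.98), after rescaling (-0.94), with a pseudocount of 1 (-0.56) and in the fit of the 6 libraries compared (adjusted p = 0.0562). HOXC8, a thoracic HOX gene, was at 4.50, 4.16 and 4.34 FPKM at 0 d, 2.48, 2.55 and 2.79 on day 3, 2.37, 2.35 and 2.71 on day 6 and 2.62, 2.21 and 2.64 on day 9. It went from its 0 d level to a lower one by 3 d and was nearly the same at 3, 6 and 9 d, with a 3 d vs. 0 d log2 fold change of -0.71 (SE 0.10, adjusted p = 0.000138). HOXB9 was at 2.45, 2.73 and 2.09 FPKM at 0 d, 1.57, 1.37 and 1.14 on day 3, 3.81, 3.52 and 5.23 on day 6 and 2.33, 3.79 and 2.92 on day 9. It was thus lowest at 3 d and on average highest at 6 d, a course opposite to that of HOXB6 in the same cluster, and its 3 d vs. 0 d log2 fold change was -0.79 (SE 0.21, adjusted p = 0.0086). HOXC10, close to the limit of detection, had a log2 fold change of -0.93 (adjusted p = 0.0737) and was called (-1.22) without 0 d replicate 2.

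**Figure D2:**
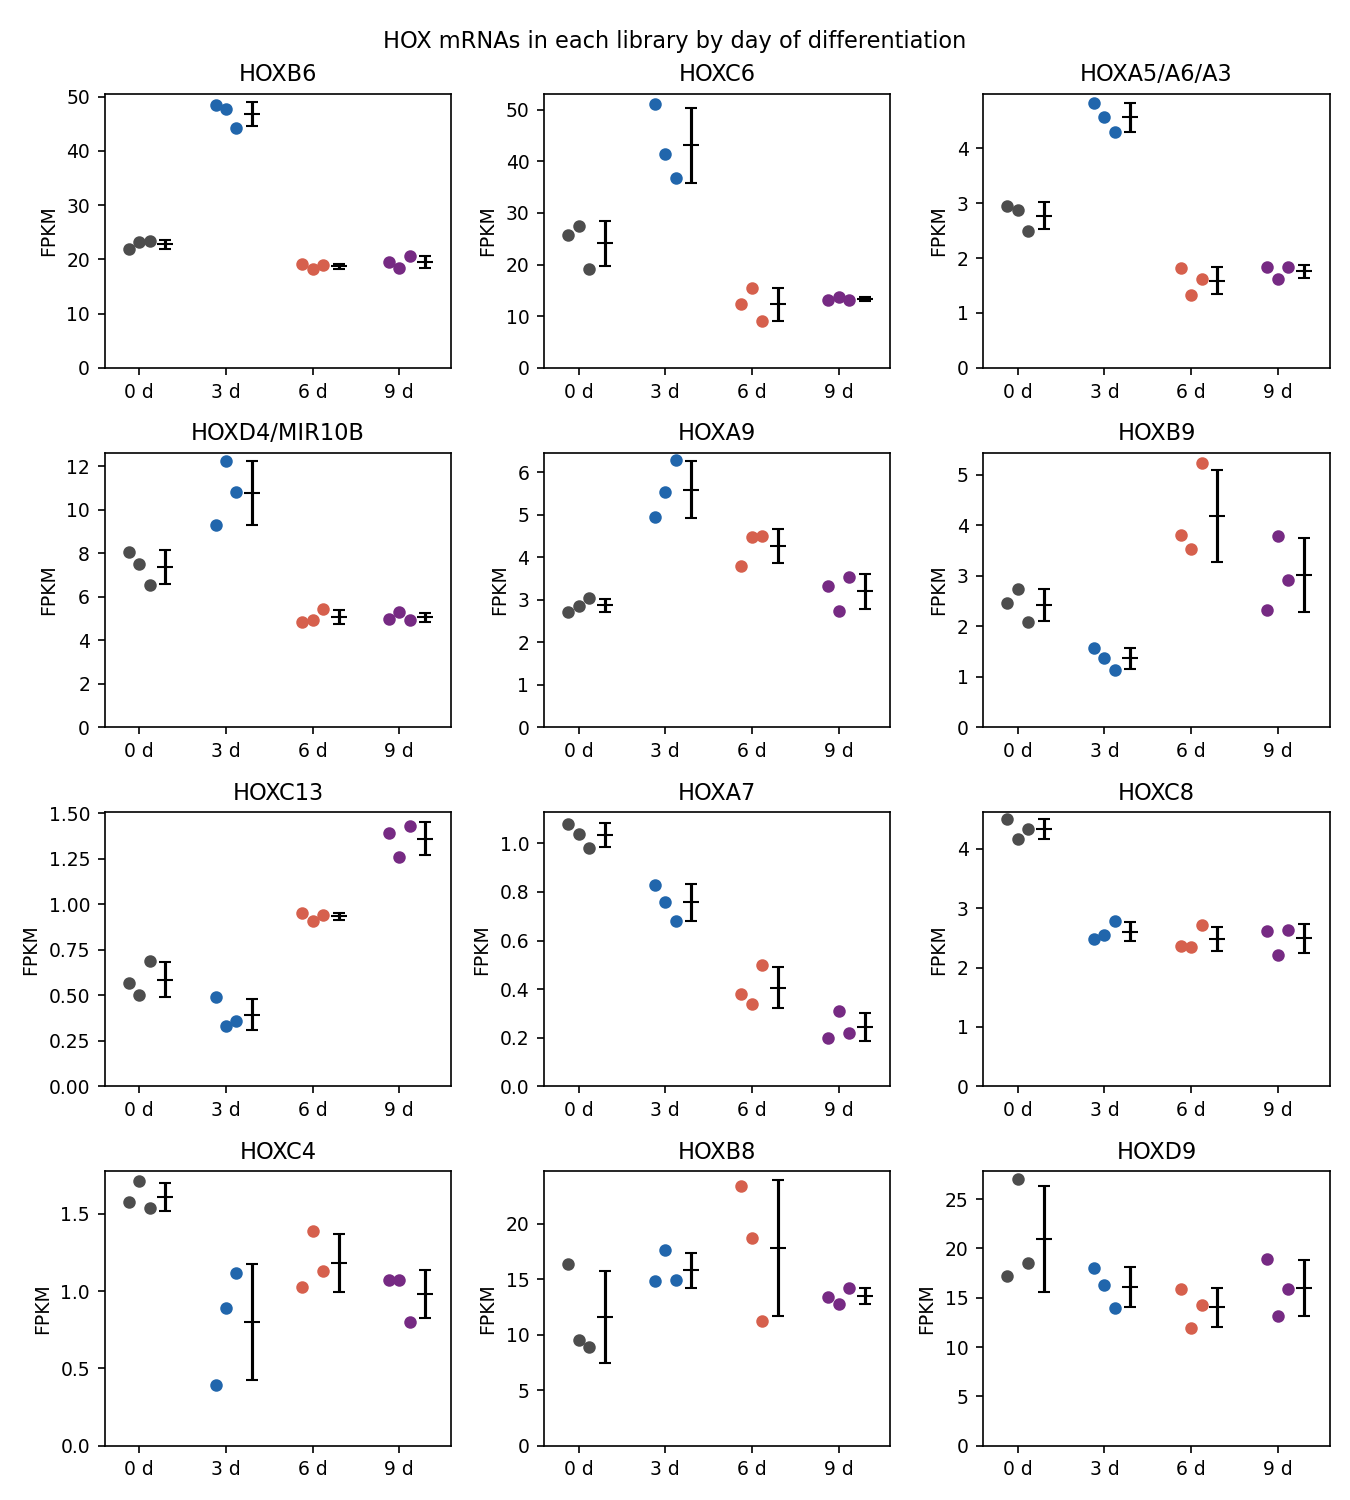
FPKM of 12 HOX entries in each library (points, 3 a day) with the mean and SD of each day (black bar and whiskers); each vertical axis starts at 0. HOXB6, HOXC6, HOXA5 with HOXA6 and HOXA3, and HOXD4 with MIR10B peak at 3 d, HOXB9 is lowest there, and HOXA7 and HOXC13 end far from their 0 d levels.

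The 6 d vs. 3 d comparison covers the days after withdrawal of dexamethasone and IBMX. It held the largest number of HOX calls of the 5 comparisons: 2 of 21 were higher and 4 lower, beside 9.85% and 9.23% of all mRNAs. In all, 13 had an adjusted p under 0.05, 2 of them higher at 6 d and 11 lower, beside 22.4% and 27.1% of all mRNAs. The median log2 fold change was -0.38 for the HOX mRNAs and -0.09 for all mRNAs. The HOX median was -0.19 with a pseudocount of 1 and -0.07 with no filter. This comparison shares the 3 d libraries with the one before it, as 3, 6 and 9 d share the 0 d libraries, so these comparisons are not independent of each other.

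HOXC6 fell most, by 1.82 on the log2 scale (SE 0.20, adjusted p = 4.07e-05). The HOXA5, HOXA6 and HOXA3 entry fell by 1.48 (SE 0.12, adjusted p = 4.27e-06), and HOXB6 fell by 1.31 (SE 0.06, adjusted p = 1.02e-07). In these 3 entries each 6 d library was below each 3 d library, and the calls held in each of the 19 alternatives run, which include leaving out each library. HOXD4 with MIR10B fell by 1.07 (SE 0.11, adjusted p = 2.83e-05), and was not called without 3 d replicate 2 (-0.97), after rescaling (-0.99) or with a pseudocount of 1 (-0.95). HOXB9 rose by a log2 fold change of 1.54 (SE 0.21, adjusted p = 0.00015), and HOXC13 by 1.08 (SE 0.14, adjusted p = 0.000135). Without 3 d replicate 2 the value for HOXC13 was 0.99 and it was not called, which left 4 HOX calls in this comparison. With a pseudocount of 1 HOXC13 (0.47) was not called either, again leaving 4.

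HOXC13, the last gene of cluster C and known from hair and nail formation, was the one posterior HOX mRNA near 1 FPKM. It was at 0.57, 0.50 and 0.69 FPKM at 0 d and 0.49, 0.33 and 0.36 at 3 d. It was at 0.95, 0.91 and 0.94 FPKM at 6 d and 1.39, 1.26 and 1.43 at 9 d. The 6 d and 9 d libraries were thus all above the 0 d and 3 d libraries, at a low level on every day.

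The 6 d and 9 d comparisons with 0 d give the differences later in the course. At 6 d vs. 0 d, 0 of 21 HOX mRNAs were called higher and 1 lower, beside 3.39% and 7.97% of all mRNAs. By limma, 14 of 21 had an unadjusted p under 0.05 and 12 an adjusted p under 0.05, 3 of them higher and 9 lower, beside 10% and 24.8% of all mRNAs. No other tool was run on FPKM. The median was -0.42 for the HOX mRNAs and -0.15 for all mRNAs. At 9 d vs. 0 d, 1 was called higher and 1 lower, beside 3.41% and 7.47% of all mRNAs, and 8 had an adjusted p under 0.05, 1 of them higher and 7 lower, beside 9.69% and 27.2% of all mRNAs. The median was -0.37 for the HOX mRNAs and -0.19 for all mRNAs. With a pseudocount of 1 the HOX median was -0.26 at 6 d and -0.12 at 9 d, and with no filter -0.19 and -0.22. Without 9 d replicate 2 it was -0.24 at 9 d. With the libraries rescaled by their median ratio, which sets the median of all mRNAs near 0, the HOX median was -0.31 at 6 d and -0.17 at 9 d.

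HOXA7, a thoracic gene of cluster A, had fallen at 6 d and at 9 d. It was at 1.08, 1.04 and 0.98 FPKM at 0 d and 0.83, 0.76 and 0.68 FPKM at 3 d. It was at 0.38, 0.34 and 0.50 FPKM at 6 d and 0.20, 0.31 and 0.22 FPKM at 9 d. Each day lay below the one before it without overlap. The log2 fold change was -1.17 at 6 d (SE 0.16, adjusted p = 0.00023) and -1.74 at 9 d (SE 0.16, adjusted p = 1.83e-05). HOXC13 rose at 9 d vs. 0 d by a log2 fold change of 1.10 (SE 0.14, adjusted p = 0.000224). Both genes lie near or under 1 FPKM, and with a pseudocount of 1 in place of 0.1 their calls were lost, at -0.53 (6 d) and -0.71 (9 d) for HOXA7 and 0.57 (9 d) for HOXC13.

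HOXC6, the most changed of the abundant members, was below 0 d by a log2 fold change of -0.98 at 6 d (SE 0.20, adjusted p = 0.00377) and -0.83 at 9 d (SE 0.20, adjusted p = 0.00903). At 6 d it was called without 0 d replicate 3 (-1.14), 6 d replicate 1 (adjusted p = 0.0119) or 6 d replicate 2 (-1.17). HOXC8 stood at -0.79 at 6 d (SE 0.10, adjusted p = 0.000144) and -0.78 at 9 d (SE 0.10, adjusted p = 0.000171). HOXA2, a gene of the anterior end of cluster A, was at 1.55 to 2.60 FPKM at 0 d, 0.89 to 1.33 on day 3, 0.70 to 1.23 on day 6 and 0.75 to 1.36 on day 9. Its log2 fold changes were -0.94 at 6 d (adjusted p = 0.0245) and -0.89 at 9 d (adjusted p = 0.0308). At 6 d it passed the fold threshold without 0 d replicate 1 (-1.02), 0 d replicate 2 (-1.08) or 6 d replicate 1 (-1.12), and at 9 d without 0 d replicate 2 (-1.02) or 9 d replicate 1 (-1.10). The count of HOX calls at 6 d was therefore 2 without any of the 0 d libraries or 6 d replicate 2, and 3 without 6 d replicate 1.

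The last step, 9 d vs. 6 d, held no HOX call. At 9 d vs. 6 d, 0 of 21 were called in either direction by limma, beside 2.55% of all mRNAs higher and 1.89% lower. An unadjusted p under 0.05 was found for 5 and an adjusted p under 0.05 for 3, 1 of them higher and 2 lower, beside 10% and 10.7% of all mRNAs. No other tool was run on FPKM. The 3 were HOXA7 (-0.56, SE 0.16, adjusted p = 0.0291), HOXC13 (0.50, SE 0.14, adjusted p = 0.0339) and HOXA9 (-0.41, SE 0.12, adjusted p = 0.0451).

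Several abundant HOX mRNAs passed no test in any comparison. HOXD9 was at 17.20, 27.07 and 18.49 FPKM at 0 d, 18.04, 16.30 and 14 on day 3, 15.92, 11.96 and 14.25 on day 6 and 18.90, 13.19 and 15.87 on day 9. Its days overlapped, apart from 6 d, which lay below 0 d (log2 fold change -0.55, adjusted p = 0.0529). HOXB8 was at 16.40, 9.53 and 8.92 FPKM at 0 d, 14.87, 17.65 and 14.98 on day 3, 23.40, 18.72 and 11.24 on day 6 and 13.42, 12.79 and 14.26 on day 9. Its spread between libraries of 1 day was wide, and its largest log2 fold change was 0.60 (SE 0.28, adjusted p = 0.126) at 6 d vs. 0 d. HOXA4 ranged from 7.53 to 9.40 FPKM at 0 d, 5.45 to 8.54 on day 3, 5.40 to 6.43 on day 6 and 4.67 to 7.85 on day 9 (6 d vs. 0 d log2 fold change -0.60, adjusted p = 0.0634). HOXD8 ranged from 0.54 to 1.61 FPKM over the 12 libraries, with fold changes within their SE of 0.32 in all 5 comparisons. A p that misses the threshold does not show that these levels were equal.

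**Figure D3:**
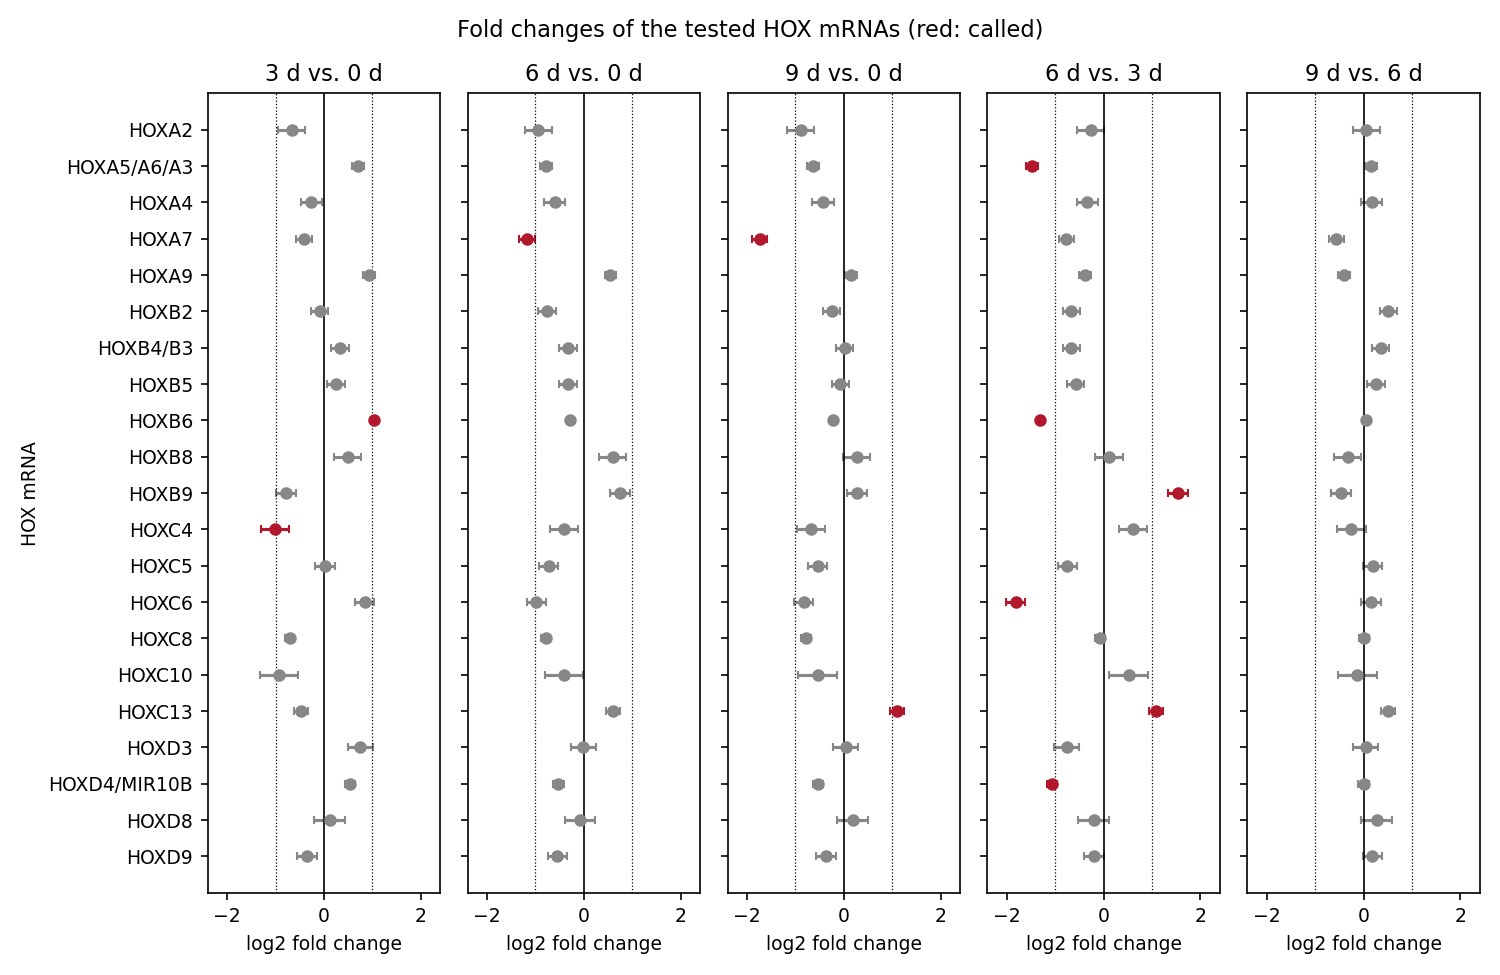
Log2 fold change (points) with its SE (whiskers) for the 21 tested HOX mRNAs in the 5 comparisons; red points were called, grey points were not, and dotted lines mark a log2 fold change of -1 and 1. Most red points lie in the 6 d vs. 3 d panel, and there are 0 in the 9 d vs. 6 d panel.

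Among the Hox-cluster miRNAs, 3 were abundant. Reads were scaled by library total and TMM factors to RPM, from libraries of 1851720 to 5636256 miRNA reads. By total raw reads miR-10b ranked 78, miR-615-3p 93 and miR-10a 108 among the 1458 entries. The arms named here gave 99.8% of the reads of the miR-10b hairpin, 99.6% of those of miR-10a and 99.4% of those of miR-615, the last being the 3′ arm.

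miR-10a was at 528, 519 and 580 RPM at 0 d and 888, 813 and 848 at 3 d. It was at 1003, 902 and 968 RPM at 6 d and 1641, 1921 and 2463 at 9 d. Each later day lay above 0 d without overlap, and 9 d lay above all other days, with 9 d replicate 3 the highest. The log2 fold change was 0.65 at 3 d vs. 0 d (edgeR adjusted p = 0.0326), 0.82 at 6 d (adjusted p = 0.00514) and 1.89 at 9 d (adjusted p = 3.78e-06). It was called at 9 d vs. 0 d under all 19 alternatives. miR-10a also rose at 9 d vs. 6 d (log2 fold change 1.07, adjusted p = 0.0111), but this call was lost without 6 d replicate 1 (adjusted p = 0.0765), 6 d replicate 2 (adjusted p = 0.0957) or 9 d replicate 3 (log2 fold change 0.90), which left 0 calls there. Over all 19 alternatives that log2 fold change lay between 0.90 and 1.19 and its adjusted p between 1.77e-09 and 0.0957.

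miR-10b, the miRNA of the HOXD4 locus, was at 1243, 1192 and 1674 RPM at 0 d and 2167, 2061 and 2257 at 3 d. It was at 1874, 1576 and 1801 RPM at 6 d and 2192, 2836 and 3819 at 9 d. Its 3 d and 9 d libraries lay above 0 d, while 6 d overlapped 0 d. Its log2 fold change was 1.11 at 9 d vs. 0 d (adjusted p = 0.00182), 0.66 at 3 d vs. 0 d (adjusted p = 0.0723) and 0.35 at 6 d vs. 0 d (adjusted p = 0.287). The 9 d call was lost without 9 d replicate 3 (0.88) or 0 d replicate 1 (0.99), and with DESeq2 (0.96) or limma on the normalized values (0.96). The ratio of miR-10b to miR-10a was 2.51 ± 0.326 at 0 d, 2.55 ± 0.112 on day 3, 1.83 ± 0.0682 on day 6 and 1.45 ± 0.109 on day 9. The 0 d ratios (2.3 to 2.89) lay above those of 9 d (1.34 to 1.55), with an exact two-sided permutation p = 0.1, the smallest that 3 against 3 libraries can give.

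miR-615-3p had its highest values at the start. It was at 2093, 2050 and 2710 RPM at 0 d and 1644, 1566 and 1818 at 3 d. It was at 1439, 1327 and 1430 RPM at 6 d and 1483, 1091 and 1045 at 9 d. All later libraries were below 0 d. The log2 fold change was -0.45 at 3 d (adjusted p = 0.171), -0.71 at 6 d (adjusted p = 0.0168) and -0.92 at 9 d (adjusted p = 0.00237), under the fold threshold. At 9 d it was called with DESeq2 (-1.06), with limma on the normalized values (-1.05), and without 0 d replicate 1 (-1.04) or 9 d replicate 1 (-1.10). Its partner from the 5′ arm averaged 13 ± 6.46 RPM at 0 d and 5.64 ± 1.43 at 9 d (log2 fold change -1.22, adjusted p = 0.0655), and was called without 0 d replicate 3 (-1.51), with DESeq2 or with at least 120 raw reads.

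The minor arms and the miR-196 genes were close to or at 0. The 3′ arm of miR-10a (chi-miR-10a-3p) had 0 to 37 raw reads a library and that of miR-10b (chi-miR-10b-3p_L-1) 0 to 29. miR-196b had 7 reads in 6 d replicate 3, 6 in 9 d replicate 3 and 0 in the other 10 libraries. Each copy of miR-196a held an equal share of the same reads, 0 to 12.5 a library. A count of 0 still allows 3 reads, which is 0.515 to 1.77 RPM in these libraries, so no fold change is given for miR-196. This limit covers counting error only.

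Counted together, 0 of the 9 miRNA entries were called at 3 d vs. 0 d, beside 3.41% of 1174 tested miRNAs higher and 2.64% lower. At 3 d edgeR gave 3 with an unadjusted p under 0.05, DESeq2 called 0 and limma 0. At 6 d vs. 0 d, 0 were called, beside 7.16% higher and 4.34% lower, with 2 at an unadjusted p under 0.05 in edgeR and 0 called by DESeq2 or limma. At 9 d vs. 0 d, 2 were called higher and 0 lower by edgeR, beside 9.97% and 9.54%, with 4 at an unadjusted p under 0.05. DESeq2 called 3 there (miR-10a and both arms of miR-615) and limma 2 (miR-10a and miR-615-3p), and without 9 d replicate 3 edgeR called 1. At 6 d vs. 3 d, 0 were called, beside 2.81% and 1.11%, with 0 at an unadjusted p under 0.05 in edgeR and 0 called by DESeq2 or limma. At 9 d vs. 6 d, 1 was called higher and 0 lower by edgeR, beside 0.17% higher and 0.17% lower, with 2 at an unadjusted p under 0.05. In order of these 5 comparisons, the median log2 fold changes of the members were -0.21, 0.27, 1.17, -0.26 and 0.32. Those of all miRNAs were 0.00, 0.23, 0.00, 0.12 and -0.14. The miR-196 entries in the member medians rest on few reads. The copies of miR-196a share the same reads, so the same fold change enters each member median again. At 9 d vs. 0 d the member median of 1.17 was the value of chi-miR-10a-3p (edgeR adjusted p = 0.318).

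**Figure D4:**
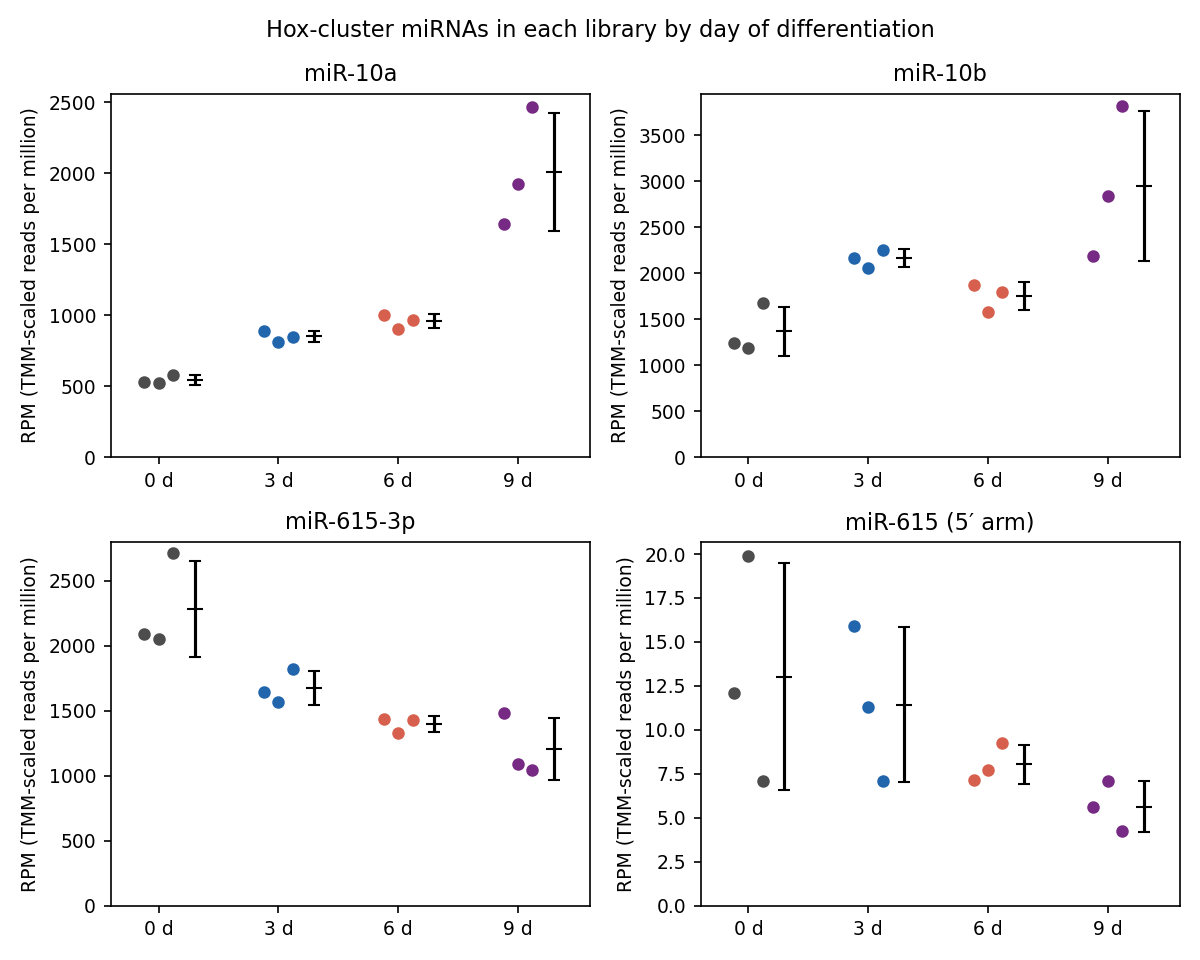
TMM-scaled RPM of 4 Hox-cluster miRNAs in each library (points, 3 a day) with the mean and SD of each day (black bar and whiskers); each vertical axis starts at 0. miR-10a and miR-10b are highest at 9 d, with 9 d replicate 3 on top, and miR-615-3p is highest at 0 d.

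The miRNAs can be set beside the mRNAs of their own loci. HOXD4 with MIR10B averaged 7.36 ± 0.784 FPKM at 0 d and 5.06 ± 0.195 at 9 d (log2 fold change -0.53, adjusted p = 0.00453), while miR-10b rose by a log2 fold change of 1.11. HOXB4 with HOXB3, around the miR-10a gene, averaged 0.347 ± 0.0321 FPKM at 0 d and 0.353 ± 0.0379 at 9 d (log2 fold change 0.02, adjusted p = 0.947), while miR-10a rose by 1.89. HOXC5, around the miR-615 gene, averaged 0.173 ± 0.0503 FPKM at 0 d and 0.0867 ± 0.0208 at 9 d (log2 fold change -0.54, adjusted p = 0.064), at a far lower mRNA level than HOXC6 beside it. FPKM and miRNA reads are different scales, and the difference between mRNA and miRNA changes was not tested. Of 14070 circRNAs, 0 had a HOX gene as host, in libraries of 5358 to 10729 back-spliced reads.

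HOX proteins bind DNA together with TALE homeodomain proteins, of which 9 of 9 genes were found and 8 tested. At 3 d vs. 0 d 1 was higher and 1 lower, beside 8.06% and 15.2% of all mRNAs. MEIS2 fell from 14.3 ± 0.985 FPKM at 0 d to 6.35 ± 0.542 at 3 d (log2 fold change -1.16, adjusted p = 1.13e-06). PBX2, in 1 entry with AGER, was at 14 ± 0.797 and 7.96 ± 0.631 FPKM on these days (-0.81, adjusted p = 6.29e-06). PKNOX1 rose at 3 d (1.07, adjusted p = 0.0169), but not without 0 d replicate 3 (0.82) or 3 d replicate 1 (adjusted p = 0.0514), nor with a pseudocount of 1 (0.98).

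Polycomb complexes hold silent HOX genes repressed, and 27 of 27 of their genes were tested. At 3 d 1 was higher (JARID2, log2 fold change 1.08) and 2 lower (PCGF5, -3.00, and PCGF1, -1.43), beside 8.06% and 15.2% of all mRNAs. At 9 d 0 were higher and 2 lower (CBX2, -1.58, and PCGF5, -1.56), beside 3.41% and 7.47%. The medians were -0.09 and -0.28 for the Polycomb genes, and -0.06 and -0.19 for all mRNAs. RBBP4 was the most abundant, at 1278 ± 30 FPKM at 0 d. Without 0 d replicate 1, 0 d replicate 2, 9 d replicate 2 or 9 d replicate 3 PCGF5 was not called at 9 d (-1.42 to -1.32), nor in the fit of the 6 libraries compared (adjusted p = 0.0507), and 1 to 3 genes were called lower when libraries were left out. CBX7 was called lower at 9 d with the replicate block (-1.46, adjusted p = 0.0384), which made 3 lower, in the fit of the 6 libraries compared (adjusted p = 0.038) and without 6 d replicate 3 (adjusted p = 0.0255). At 3 d JARID2 (0.57) and PCGF1 (-0.58) were not called with a pseudocount of 1 and not tested with a mean of at least 1 FPKM, which left 0 higher and 1 lower. Of 14 trithorax and H3K27 demethylase genes, which counter Polycomb, 13 were found and tested. By limma 0 were called higher or lower at 3 d (median 0.16) or 9 d (median -0.13), with an unadjusted p under 0.05 for 4 on each day and KMT2D at 218 ± 69 FPKM at 0 d and 141 ± 14.8 at 9 d (log2 fold change -0.59, adjusted p = 0.0431).

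Retinoic acid switches on anterior HOX genes, and 13 of 18 genes of its pathway were tested. At 3 d 1 was higher and 4 lower, beside 8.06% and 15.2% of all mRNAs. At 9 d 0 were called by limma (7 at an unadjusted p under 0.05), beside 3.41% higher and 7.47% lower. The medians of the pathway were -0.38 at 3 d and -0.24 at 9 d. ALDH1A1, which makes retinoic acid, rose from 11.1 ± 0.56 FPKM at 0 d to 149 ± 6.63 at 3 d (log2 fold change 3.74, adjusted p = 7.72e-11) and was at 10.5 ± 0.258 at 9 d. ALDH1A3, with the same activity, fell from 472 ± 209 to 147 ± 18.5 FPKM at 3 d (-1.60, adjusted p = 0.000228). With a pseudocount of 1, 2 were lower at 3 d, as CRABP2 (-0.33) and RARG (-0.66) were not called. Of 13 upstream regulators of Hox clusters 6 were tested. EGR2 fell at 3 d (log2 fold change -1.52), but not with a pseudocount of 1 (-0.29), and was not tested with a mean of at least 1 FPKM. BMP4 rose at 9 d (1.87). CDX2, CDX4 and FGF8 were listed at 0. At 9 d YY1 was called lower without 9 d replicate 2 (-2.66) or in the fit of the 6 libraries compared (-1.97), and EGR2 higher after rescaling (1.04) or with a pseudocount of 0.01 (1.10).

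Of 22 genes beside the Hox clusters, 20 were found and 16 tested. At 3 d 1 was higher (CBX1, 1.12) and 1 lower (SNX10, -1.33), beside 8.06% and 15.2% of all mRNAs. At 9 d 0 were called by limma (4 at an unadjusted p under 0.05), beside 3.41% higher and 7.47% lower. The medians of these genes were -0.27 at 3 d and -0.08 at 9 d. EVX1 and EVX2, next to the posterior ends, were listed at 0. These calls were lost without 3 d replicate 3 for CBX1 (0.94) and 0 d replicate 3 for SNX10 (-0.85). SNX10 was also not called with a pseudocount of 1 (-0.55) or in the fit of the 6 libraries compared (adjusted p = 0.0689), and not tested with a mean of at least 1 FPKM. HIBADH was called lower at 3 d without 0 d replicate 2 (-1.02) or 3 d replicate 2 (-1.03), and CBX1 higher at 9 d without 9 d replicate 2. Of 37 other regional homeobox and T-box factors 26 were tested. At 3 d 1 was higher and 9 lower, beside 8.06% and 15.2% of all mRNAs. At 9 d 3 were higher and 1 lower, beside 3.41% and 7.47%. The medians were 0.02 and -0.42 for these factors, and -0.06 and -0.19 for all mRNAs. At 3 d a pseudocount of 1 gave 0 higher and 4 lower, with DLX5, EN1, IRX3, MEOX1, MSX2 and SHOX2 no longer called, and a mean of at least 1 FPKM gave 0 higher and 5 lower, with the same genes but SHOX2 not tested. At 9 d 4 were called lower with a pseudocount of 0.01, with EMX2 (-1.03) and EN1 (-1.02) among those added. PRRX2, a mesenchymal homeobox gene, fell from 20.5 ± 1.21 to 3.29 ± 0.188 FPKM at 3 d (-2.61, adjusted p = 1.16e-09), NR2F1 from 454 ± 26.7 to 150 ± 34.9 FPKM (-1.62, adjusted p = 1.4e-05), and MSX1 rose from 27.1 ± 1.66 to 109 ± 4.42 FPKM at 9 d (2.01, adjusted p = 3.66e-07). TBX3 (1.44) was not called at 9 d without 0 d replicate 1 (0.89) or 9 d replicate 2 (adjusted p = 0.0578), nor in the fit of the 6 libraries compared (adjusted p = 0.0679), and EMX2 was called lower there without 0 d replicate 2 (-1.01), 9 d replicate 1 (-1.14) or 9 d replicate 3 (-1.01), so the lower count was then 2. At 3 d SIX2 was called higher without 6 d replicate 3 (adjusted p = 0.0196) or 9 d replicate 2 (adjusted p = 0.0459), or in the fit of the 6 libraries compared (adjusted p = 0.0107).

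Genes that respond to the cocktail were counted in the same way. Of 8 glucocorticoid and cAMP response genes, all tested, 7 were higher and 0 lower at 3 d, beside 8.06% and 15.2% of all mRNAs. At 9 d 3 were higher and 0 lower, beside 3.41% and 7.47%. The medians of these genes were 2.75 at 3 d and 0.89 at 9 d. Without 3 d replicate 1 or in the fit of the 6 libraries compared, 4 were higher at 9 d, with PDE4D (1.54) added, and with a pseudocount of 1 FKBP5 was not called (adjusted p = 0.051). Their sum was 405 to 438 FPKM at 0 d, 1339 to 1871 on day 3, 1004 to 1067 on day 6 and 792 to 819 on day 9, with DUSP1 the most abundant gene. ZBTB16, a glucocorticoid-induced gene, went from 0.343 ± 0.162 FPKM at 0 d to 282 ± 105 at 3 d and 12.3 ± 2.92 at 9 d. Of 8 proliferation genes 0 were called by limma at 3 d (median 0.66) or 9 d (median -0.26), with 5 at an unadjusted p under 0.05 on each day, apart from CDK1 at 3 d without 3 d replicate 2 (1.34). They summed to 49 to 62.9 FPKM at 0 d, 69.2 to 93.6 on day 3, 50.5 to 56 on day 6 and 41.8 to 49.5 on day 9. Whether either response bears on the HOX levels was not tested.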

How the data were processed

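mRNA levels were the authors' FPKM, and HOX entries were taken by gene name. For miRNAs the authors gave estimated counts, raw reads with shared reads split between entries, and a normalized signal, a fixed multiple of the raw reads within each library by the deposited values. For circRNAs the authors gave counts of back-spliced reads. The paper names ARS-UCD1.2 as the genome, while the submitters' processing notes list mm8, a mouse build, with HISAT2 2.0, StringTie 1.3.0 and Bowtie 0.12.2. The labels describe poly(A) selection and the paper rRNA depletion. The 24 columns of lncRNA FPKM and circRNA SRPBM were not used.

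mRNAs with a mean of at least 0.1 FPKM (15402) were fitted with limma 3.58.1 (trend, not robust) on log2(FPKM + 0.1), and miRNAs with at least 10 raw reads (1174) with edgeR 4.0.16 (TMM, quasi-likelihood) on rounded values. Days were fitted as 4 groups over the 12 libraries together. For a call, the log2 fold change had to exceed 1 in size and p, adjusted by Benjamini-Hochberg over every feature tested in a comparison, had to be under 0.05. Nothing states that replicates came from separate animals, so p measures the spread between these libraries. Both fits were tested on simulated data, in which a smaller share of the changes was recovered for miRNAs than for mRNAs. Named were HOX mRNAs with a mean of at least 1 FPKM or a call, all miRNA entries, and of each other list the 4 most abundant members and up to 6 called at 3 d or 9 d vs. 0 d, of which examples are given. Genes named for a call that changed with a left-out library were chosen after their values were seen. List counts, where given, are for 3 d vs. 0 d, 9 d vs. 0 d or both. Some members of these lists, and counts that turn on them, are not reported here. The members and lists were chosen with earlier results of these data known. Alternatives for mRNAs were pseudocounts of 1 and 0.01, no filter or a mean of at least 1 FPKM, and rescaling by median ratio. Those for miRNAs were DESeq2 1.42.0, limma on the normalized values, and no filter or at least 120 reads. Entries of the same miRNA arm were also summed, which left 8 Hox-cluster entries. Both kinds had fits of the 6 libraries compared, a replicate block, and fits leaving out each library. R 4.3.3, Python 3.11.15, NumPy 2.4.6, pandas 2.3.3 and Matplotlib 3.10.9 were used.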

Additional observations from a re-analysis of the deposited data

How the results depend on the processing

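For HOX mRNAs and Hox-cluster miRNAs called under at least 1 setting, their log2 fold changes were compared with each alternative. In 389 of these comparisons the call was the same, in 20 it was lost, in 21 it was gained and in 0 the direction reversed.

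HOX mRNAs called at 3 d vs. 0 d went from 2 to 1 with a pseudocount of 1 and to 1 in the fit of the 6 libraries compared, where HOXC4 was lost, and stayed 2 with 1 library left out, where HOXC10 replaced HOXC4 without 0 d replicate 2 and HOXA9 replaced it without 3 d replicate 1. At 6 d vs. 0 d the count of 1 became 0 with a pseudocount of 1, 3 with 0.01 (HOXA2 and HOXC5 added) and 0 with a mean of at least 1 FPKM, and 1 to 3 with 1 library left out. At 9 d vs. 0 d the count of 2 became 0 with a pseudocount of 1 and 0 with a mean of at least 1 FPKM, and 2 to 3 with 1 library left out. With that filter HOXA7 and HOXC13 are not tested, which is why their calls are gone, and for the other settings the cause was not tested. At 6 d vs. 3 d the count of 6 ranged from 4 to 7, and at 9 d vs. 6 d it was 0 throughout.

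Hox-cluster miRNAs called at 9 d vs. 0 d were 2, with 1 to 3 when 1 library was left out, and at 9 d vs. 6 d 1, with 0 to 1. The cause was not tested.

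With the replicate number as a replicate block, HOX counts were 2, 1, 2, 6 and 0 in the order 3 d, 6 d and 9 d vs. 0 d, 6 d vs. 3 d and 9 d vs. 6 d, and miRNA counts 0, 0, 2, 0 and 1. Residuals of libraries with the same number on different days correlated at -0.0981 to 0.112 for mRNAs (median 0.022) and -0.125 to 0.324 for miRNAs (median 0.0229), and those with other numbers at -0.19 to 0.183 and -0.258 to 0.22, so the numbers were not treated as pairs.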
